A study of Caenorhabditis elegans with 2 samples.

Results

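The 612 transfer RNA (tRNA) genes on the nuclear chromosomes of *Caenorhabditis elegans* were examined for peaks of the GATA-type transcription factor EGL-18, out of 46890 annotated nuclear genes. They were taken as every nuclear gene that the annotation classes as tRNA, on assembly ce11 (WBcel235), by annotation alone. The data are ChIP-seq peak lists from whole animals of strain RW12252, which carries st12252[egl-18::TY1::EGFP::3xFLAG] IV, an insertion of a tag with green fluorescent protein into *egl-18* made with CRISPR. Chromatin sheared by sonication to 200 to 800 bp was precipitated with an antibody against GFP from young adults at 63 h, grown from larvae starved in the L1 stage after bleaching. There was 1 group, with biological replicates 1 and 2. Sex was not collected, and no untagged or input list was analysed here. Because whole animals were used, signal from a few cell types and weaker signal from many cannot be told apart.

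tRNA genes are transcribed by RNA polymerase III from promoters that lie inside the gene. The factor TFIIIC recognises the A box and the B box, which also form the D arm and the T arm of the tRNA, and brings TFIIIB to the DNA just upstream. Transcription ends in a run of T shortly after the gene. Each gene belongs to an isotype, the amino acid its tRNA carries, and reads codons with its 3-base anticodon. EGL-18 acts in epidermal seam cells and in the developing vulva, and factors of its class bind GATA sites.

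The sequences of 6 of the 10 genes with the highest peaks are given first. They are followed, for contrast, by 3 genes of the same anticodon and nearly the same sequence that had no peak in the series ranked list. Of these 3, C06B8.t2 had a peak in the ranked list of replicate 1, with a height of 13.2. They are read from the RefSeq WBcel235 genome, 5′ to 3′ on the strand of the gene. Capitals mark the anticodon and, after it, the B box core GTTCNANNC.
F15G9.t1 (Ala, X:9743589-9743660, plus strand): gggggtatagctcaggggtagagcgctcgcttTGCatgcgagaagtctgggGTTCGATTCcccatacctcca
F15G9.t2 (Ala, X:9743747-9743818, plus strand): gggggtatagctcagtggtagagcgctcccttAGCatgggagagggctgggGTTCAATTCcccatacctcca
R11.t1 (Tyr, X:16209769-16209852, minus strand): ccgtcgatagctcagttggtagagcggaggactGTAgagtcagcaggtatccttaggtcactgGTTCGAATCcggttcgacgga
R04A9.t1 (Gln, X:410391-410462, plus strand): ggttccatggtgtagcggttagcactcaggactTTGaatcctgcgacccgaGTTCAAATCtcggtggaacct
T28B4.t1 (Phe, X:6593596-6593668, plus strand): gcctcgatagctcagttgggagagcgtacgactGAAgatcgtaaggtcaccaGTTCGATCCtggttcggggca
C33G3.t2 (Lys, X:14063946-14064018, minus strand): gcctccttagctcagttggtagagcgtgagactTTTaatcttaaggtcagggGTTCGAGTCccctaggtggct
C43G2.t2 (Ala, no series peak, IV:6562202-6562273, plus strand): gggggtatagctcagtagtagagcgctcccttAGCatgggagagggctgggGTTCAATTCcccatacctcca
C06B8.t2 (Tyr, no series peak, V:15480694-15480777, plus strand): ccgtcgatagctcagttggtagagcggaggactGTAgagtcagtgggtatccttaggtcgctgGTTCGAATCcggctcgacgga
F47E1.t2 (Gln, no series peak, X:9074672-9074743, minus strand): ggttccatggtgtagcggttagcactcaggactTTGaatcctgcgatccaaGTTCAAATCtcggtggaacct

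Counting from 1 at the 5′ end, C43G2.t2 differs from F15G9.t2 by G17A alone. C06B8.t2 differs from R11.t1 by C44T, A45G, A60G and T76C, and F47E1.t2 differs from R04A9.t1 by C47T and G50A. None of these substitutions lies in the anticodon or the B box core. G17A changes the base directly after the stretch tagctcagt of the A box. The limits of the A box were not placed here, so it is not known to be intact in C43G2.t2. Identical copies also differed in whether they had a peak. The sequence of F15G9.t2 occurs at 15 genes, of which 4 had a thresholded peak, and that of R04A9.t1 at 15 genes, of which 2 had one. The sequence of C33G3.t2 occurs at 14 genes and that of T28B4.t1 at 10, and in each case 2 had a thresholded peak. The sources used here do not give how the authors placed reads that match several identical copies, so a height within a gene body may draw on reads from its copies.

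A tRNA gene was called when the summit of a thresholded peak lay within 150 bp of it. Thresholded lists hold the peaks that passed the irreproducible discovery rate, a measure of whether a peak ranks alike in 2 inputs. Ranked lists hold every peak that was compared. In the series list 75 of 612 tRNA genes were called, 12.3% (95% interval 9.76 to 15.1), against a background of 1.45% over all 46890 nuclear genes. In the list of replicate 1, 30 genes were called, 4.90% (3.33 to 6.92), against 0.439%, and in that of replicate 2, 22 genes, 3.59% (2.27 to 5.39), against 0.456%. The share was above the background in each of the 3 lists. Of the other short RNA genes, 17 of 129 snRNA genes (13.2%) and 36 of 346 snoRNA genes (10.4%) were called in the series list, shares whose intervals overlap that of the tRNA genes. Of 19973 protein-coding genes 1.85% were called. Intervals on shares cover the number of genes only, and neighbouring genes can share a peak. With 1 group and no control list the design holds no condition to test, so shares, heights and their spread are given without p-values.

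The 75 called genes lay at 68 peaks, of which 61 had 1 tRNA gene and 7 had a pair. Both genes of such a pair carry the same height, so they are not separate measurements. Agreement between the replicates was partial. Of the genes called, 14 were called in both replicates, which is 46.7% of those of replicate 1 and 63.6% of those of replicate 2. Of the 75, 35 were also called in at least 1 replicate and 40 in neither. All 75 had a peak in the ranked lists of both replicates, which hold 64911 and 54253 peaks. The series list draws on both replicates, so this is not separate evidence of agreement. Another 3 genes were called in a replicate and not in the series list. These were F10C1.t1 (Gly, replicate 2) and the neighbours Y22D7AL.t3 (Met) and Y22D7AL.t4 (Glu) at 1 peak of replicate 1.

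Peak height is the authors' value for a peak, on a scale that is not stated, and is compared here only within a list. In the series ranked list 479 tRNA genes (78.3%) had a peak in reach, against 59.0% of all genes, with a median height of 43.5 against 34.1. The share was 70.5% for snRNA genes, 71.4% for snoRNA genes and 88.5% for protein-coding genes, with medians of 38.2, 35.9 and 36.8. These classes differ in gene length, with medians of 72 bp for tRNA genes and 2027 bp for protein-coding genes. The called genes had heights from 58.6 to 181, with a median of 86.9. The 404 genes with a peak that were not called had a median of 39.8 and a highest value of 86.8. The groups overlapped, since 62 genes that were not called were higher than the lowest called gene. The calls were made on these same peaks, so their heights are a description only. No peak was in reach of 83 tRNA genes in any of the 3 ranked lists.

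The highest peak at tRNA genes lay between M02F4.t1 (Gly, X:3036164-3036235) and M02F4.t2 (Glu, X:3035976-3036047). Its height was 181 in the series list, 107 in replicate 1 and 75.1 in replicate 2, and it ranked 48 of the 699 thresholded peaks. These genes lie 116 bp apart on opposite strands. C28G1.t1 (Glu, X:8836113-8836184), which touches an exon of a protein-coding gene, had heights of 164, 92.8 and 68.7 in the series list, replicate 1 and replicate 2. The Ala genes F15G9.t1 and F15G9.t2, whose sequences are given above, share a peak in an intron of *him-4*, the gene of the extracellular protein hemicentin. That peak had heights of 153, 95.2 and 55.1 in the same order. R11.t1 (Tyr) reached 153, 74.8 and 70.1. The genes at these 4 peaks were called in both replicates.

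W03G11.t1 (Lys, X:12106147-12106219), which decodes with the anticodon CTT, had heights of 149 in the series list, 88.0 in replicate 1 and 62.2 in replicate 2. R04A9.t1 (Gln), in an intron of *ZK1193.2*, had 130, 75.5 and 60.6. T28B4.t1 (Phe), in an intron of *fbxl-4*, had 127, 74.4 and 52.0 and was not in the thresholded list of replicate 2. C33G3.t2 (Lys) had 126, 69.7 and 56.3. All 10 highest genes are on X, as are 17 of the 20 highest.

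**Figure D1:**
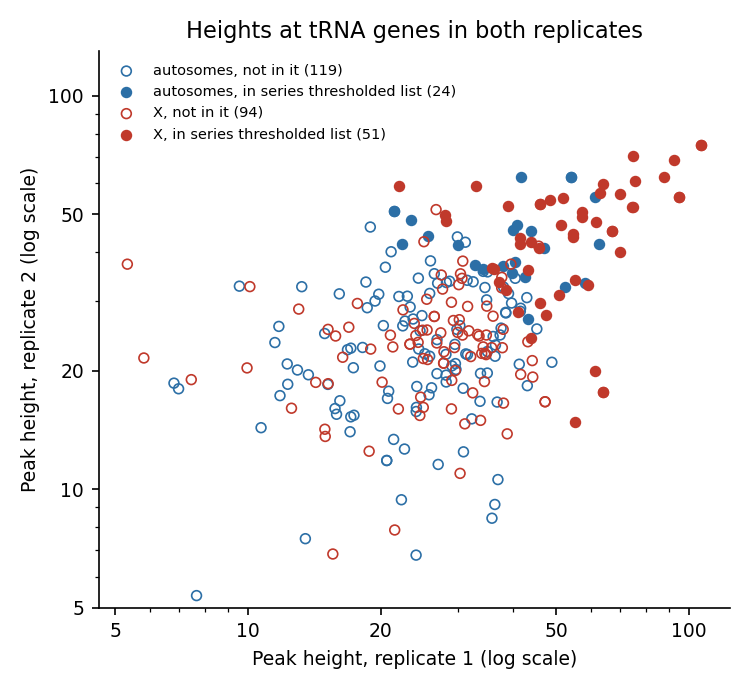
Peak height at each of the 288 tRNA genes with a peak in both replicates' ranked lists, replicate 1 on the x axis and replicate 2 on the y axis, both log scales of the authors' height. Each point is 1 gene, red for X and blue for autosomes, filled when it is in the series thresholded list. Filled points lie toward the upper right, and the neighbours T10B10.t1 and T10B10.t2, at 63.9 and 17.7, are among the few filled points low in replicate 2.

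Across the 288 tRNA genes with a height in both replicates, the heights of the replicates had a Spearman rho of 0.45 and a Pearson r of 0.48 on the log2 scale. The rho was 0.51 over 145 genes on X, 0.37 over 143 genes on autosomes and 0.28 over the 75 called genes. Genes share libraries, and many share their sequence, so these values describe the lists and carry no p-value. The 14 genes called in both replicates lay at 12 peaks and came from 9 isotypes. Beside those already named they were R01H5.t1 (Thr, 124 in the series list, 63.9 in replicate 1, 59.6 in replicate 2) and T07H6.t2 (Ala, 124, 74.8, 52.2). C02B4.t2 (Tyr, 122, 63.1, 56.6) lies in an intron of the nuclear hormone receptor gene *nhr-17*. C04A11.t1 (Leu, 109, 57.2, 50.5) and F02D10.t2 (Ser, 107, 57.4, 49.2) complete the set. All 14 are on X.

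X carried a larger share of called tRNA genes than the autosomes did. On X 51 of 276 tRNA genes were called, 18.5% (14.1 to 23.6), and on autosomes 24 of 336, 7.14%. The difference was 11.3 percentage points (95% interval 6.07 to 16.8). The background of all genes was 2.57% on X and 1.28% on autosomes, and it includes the tRNA genes. Of protein-coding genes 1.98% on X and 1.83% on autosomes were called. The difference had the same sign in the lists made from each replicate alone, at 9.42% against 1.19% in replicate 1 (8.23 points, 4.79 to 12.3) and 6.88% against 0.893% in replicate 2 (5.99 points, 3.02 to 9.66). There the backgrounds were 1.06% on X and 0.347% on autosomes in replicate 1, and 0.93% and 0.387% in replicate 2.

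Single autosomes ranged from 3 of 66 genes (4.55%) on I to 6 of 64 (9.38%) on III. Chromosome II had 4 of 57 (7.02%), IV had 5 of 71 (7.04%) and V had 6 of 78 (7.69%). The intervals of the 5 autosomes overlap each other, and those of II, III, IV and V also overlap that of X. X holds 45.1% of the tRNA genes and 68% of those called in the series list, 86.7% in replicate 1 and 86.4% in replicate 2. The autosomes held 4 called genes in replicate 1 and 3 in replicate 2.

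**Figure D2:**
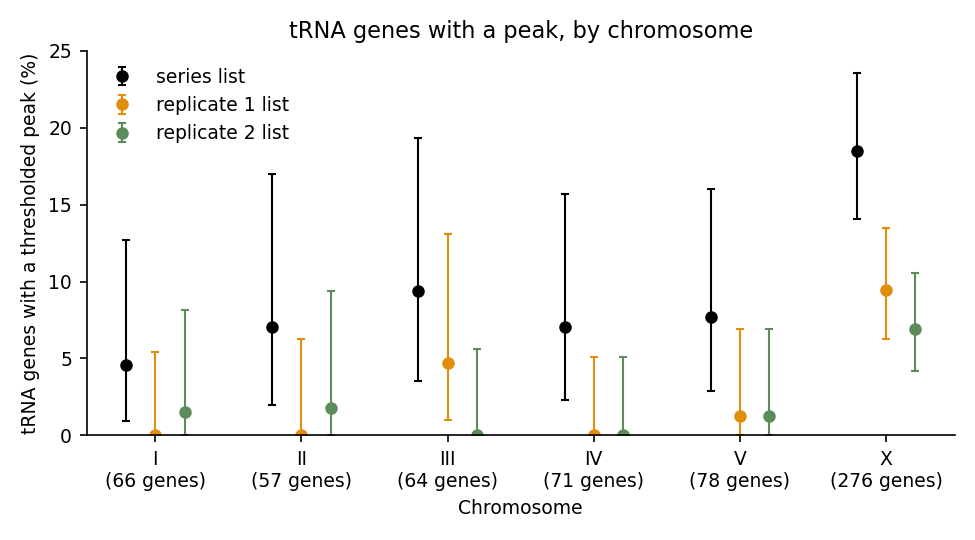
Share of tRNA genes with a thresholded peak (y axis, percent) on each chromosome (x axis, with its number of tRNA genes), for the series list and each replicate's list. Points are shares and bars are Clopper-Pearson 95% intervals over genes. X is the highest chromosome in each list, at 18.5%, 9.42% and 6.88%.

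In the series list 229 of 276 tRNA genes on X (83.0%) and 250 of 336 on autosomes (74.4%) had a ranked peak. Over these genes the third quartile of height was 66.1 on X and 56.8 on autosomes, and the median 46.1 and 41.8. The median was 29.9 against 24.4 in replicate 1, and 25.002 against 24.2 in replicate 2. These medians leave out genes without a peak, so they are not on the same footing as the shares called. The called genes of X had a median of 94.2 (58.6 to 181) and those of autosomes 78.9 (65.8 to 123). The ranges overlap.

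The highest autosomal genes carried Ala, Lys and Pro isotypes. K06A4.t1 (Ala, V:9503562-9503633), in an intron of the sugar transporter gene *swt-5*, had heights of 123 in the series list, 61.2 in replicate 1 and 55.2 in replicate 2. T23F1.t1 (Lys) and T23F1.t2 (Pro), 66 bp apart on V, share a peak of 116, 54.1 and 62.2. W09D6.t2 (Pro, III:11066848-11066919), in an intron of *rsa-2*, had 107, 62.7 and 42.1. F44A2.t1 (Ala, V:9318202-9318273), which like K06A4.t1 has a sequence found at no other tRNA gene, had 105, 41.6 and 62.3 and was among the 5 highest called genes of replicate 2. None of these autosomal genes was called in both replicates. Further down were T15B12.t1 (Met) at 92.4, K07A1.t1 (Ser) at 91.8 and K02D7.t1 (Asp) at 91.4 in the series list. F47G6.t1 (Arg), in the unconventional myosin gene *spe-15*, had 85.4, and T21B4.t1 (Ile), in the collagen gene *col-85*, had 81.5.

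Identical copies make it possible to set X beside autosomes with the gene sequence held the same. The 612 genes have 200 distinct sequences. Of the genes, 143 have a sequence of their own and 469 belong to 57 sets of identical genes. Of these sets 36 had a called copy, and in all 36 at least 1 other copy was not called. For the 43 sets with copies on both X and autosomes, 42 of 185 X copies (22.7%, 16.9 to 29.4) and 19 of 223 autosomal copies (8.52%, 5.21 to 13.0) were called in the series list. The share was higher on X in 23 of the 43 sets, lower in 8 and equal in 12. The median height was higher on X in 24 of the 37 sets with heights in both places. In replicate 1, 21 of the 185 X copies and 3 of the 223 autosomal copies were called, and in replicate 2, 16 and 1. Among genes with a sequence of their own the shares were closer, at 5 of 57 (8.77%) on X and 4 of 86 (4.65%) on autosomes, a difference of 4.12 points (-4.22 to 14.7).

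**Figure D3:**
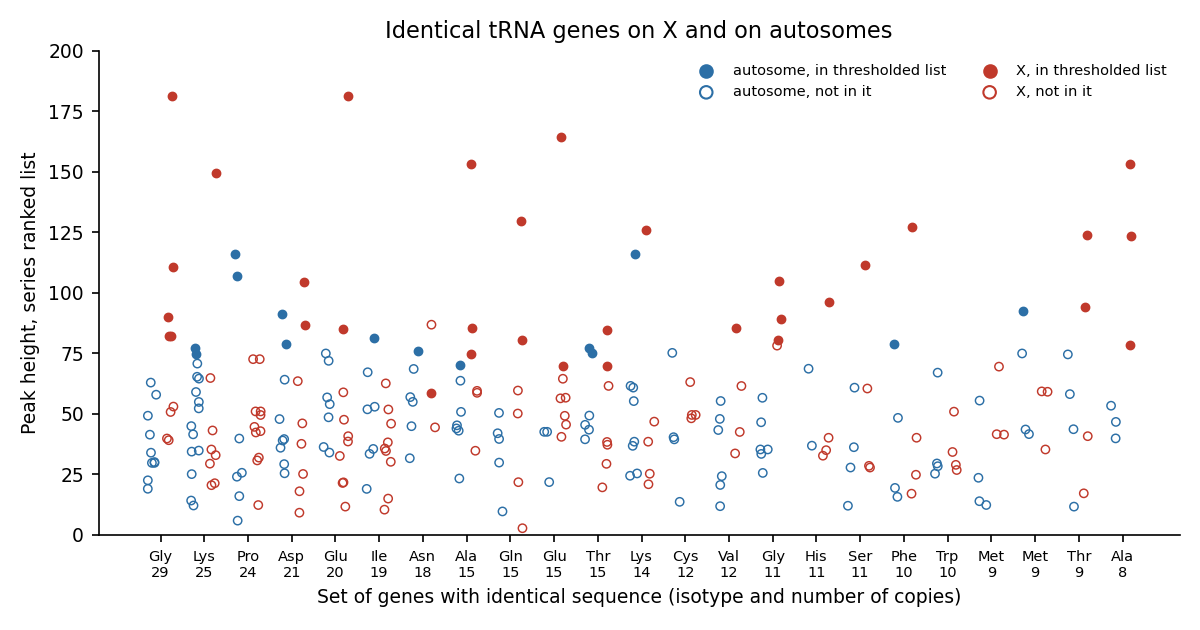
Peak height in the series ranked list (y axis) of the identical copies in each of the 23 sets of 8 or more genes with copies on both X and autosomes (x axis, isotype and number of copies). Each point is 1 gene with a ranked peak, red on X and blue on autosomes, filled when in the thresholded list. The set at the far left, of 29 Gly genes, has 5 filled points on X and 0 on autosomes, while the Pro set of 24 has 2 on autosomes and 0 on X.

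The largest set, of 29 Gly genes with the anticodon TCC, had 5 of 11 X copies and 0 of 18 autosomal copies called. The 9 X copies with a peak had heights from 39.1 to 181, with a median of 82.0, and the 10 autosomal copies with a peak from 19.1 to 62.9, with a median of 32.0. In replicate 1 the medians were 45.9 on X and 21.4 on autosomes. In replicate 2 they were 17.7 on X and 20.9 on autosomes. Neighbouring copies can share a peak, and with each peak counted once the medians were 67.5 on X and 33.97 on autosomes in the series list, 42.3 and 24.4 in replicate 1, and 26.97 and 20.8 in replicate 2. The order in replicate 2 thus depended on how shared peaks were counted. The called copies were M02F4.t1, F56C3.t1 (110 in the series list, 51.8 in replicate 1, 55.0 in replicate 2) and K09C8.t1 (89.95, 45.9, 41.1). The neighbours T10B10.t1 and T10B10.t2 share a peak of 82.0, 63.9 and 17.7.

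A set of 11 Gly genes with the anticodon GCC, chosen after its values were seen, had 3 of 4 X copies and 0 of 7 autosomal copies called. Medians were 84.7 on X and 35.3 on autosomes in the series list, 58.2 and 20.7 in replicate 1, and 34.3 and 18.1 in replicate 2. Its called copies were F17H10.t1 (105), C30E1.t1 (89.0) and T03G6.t1 (80.4), and the fourth X copy, R04E5.t6, was at 78.2 and not called. A set of 8 Ala genes with the anticodon TGC, also chosen so, had 3 of 3 X copies and 0 of 5 autosomal copies called. In the series list their heights did not overlap, from 78.4 to 153 on X and from 39.9 to 53.4 on the 3 autosomal copies with a peak. In replicate 1 they ran from 46.0 to 95.2 on X and from 17.4 to 21.1 on autosomes, and in replicate 2, where they overlap, from 29.7 to 55.1 and from 17.9 to 40.1. Other sets had a larger share on autosomes in the series list. Of 25 Lys genes with the anticodon CTT, 1 of 10 X copies and 2 of 15 autosomal copies were called, with medians of 34.1 and 52.3. In each replicate 1 X copy and 0 autosomal copies of this set were called, with medians of 26.8 on X and 23.9 on autosomes in replicate 1 and 24.5 and 26.8 in replicate 2. Of 24 Pro genes with the anticodon TGG, 0 of 13 X copies and 2 of 11 autosomal copies were called, although the median was higher on X, at 44.6 against 25.7. In replicate 1 an autosomal copy and no X copy of that Pro set was called, and in replicate 2 neither.

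Calls were spread over the isotypes. Of 21 isotypes, counting selenocysteine with its 1 gene, 18 had a called gene in the series list. Anticodons could be placed in 598 genes, and 40 of the 47 kinds had a called gene. The 14 genes whose anticodon could not be placed had 0 called. In the series list Ala had the highest share, 9 of 34 (26.5%, 12.9 to 44.4), followed by Thr with 7 of 34 (20.6%). Ser and Leu each had 6 of 39 (15.4%), Asp 4 of 27 (14.8%) and Gly 8 of 55 (14.5%). Calls in replicates 1 and 2 were 4 and 4 for Ala, 1 and 1 for Thr, and 4 and 2 for Ser. They were 1 and 2 for Leu, 1 and 0 for Asp, and 6 and 3 for Gly. Tyr, with 2 of 19 in the series list, had 2 in each replicate. Among isotypes with a call the lowest shares were those of His and Met, with 1 of 20 each (5%), and Gln, with 2 of 27 (7.41%). The intervals of all isotypes overlap, so their order is not resolved by the number of genes.

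No gene of Cys (0 of 13), Trp (0 of 12) or selenocysteine (0 of 1) was called in any of the 3 lists. With these numbers of genes a share of up to 24.7% for Cys and 26.5% for Trp lies within the interval. Cys genes had a median height of 49.6, above the 43.5 of all tRNA genes, and Trp genes 29.6. The highest Cys gene, C37A2.t1 in an intron of the cyclin E gene *cye-1*, had 75.2 in the series list, 41.5 in replicate 1 and 28.3 in replicate 2. It was among the 5 highest tRNA genes that were not called in the series list. The highest of these, F41D9.t3 (Asn) on X in an intron of *sulp-3*, had 86.8, 45.7 and 41.5. C43G2.t1 (Leu) had 77.5, 31.1 and 42.4, and F10C1.t1 (Gly) had 76.1, 18.96 and 46.4.

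**Figure D4:**
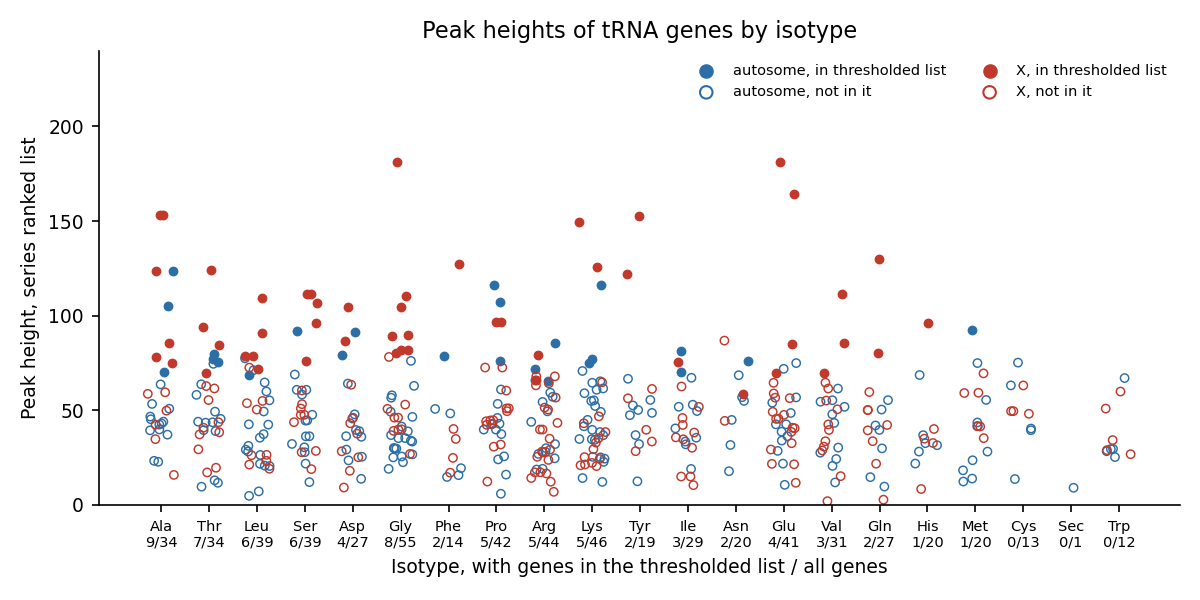
Peak height in the series ranked list (y axis) of each tRNA gene with a ranked peak, by isotype (x axis, with genes called and all genes), in order of the share called. Points are single genes, red on X and blue on autosomes, filled when in the thresholded list, spread sideways for clarity. All 8 filled points of Gly are on X, and Cys, Sec and Trp have none.

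Within isotypes the share was higher on X in 14 of the 20 with genes in both places, lower in 4 and equal in 2. The median height was higher on X in 17 of the 20. Gly had 8 of 20 genes called on X and 0 of 35 on autosomes. Glu had 4 of 23 and 0 of 18, Leu 5 of 17 and 1 of 22, and Ser 5 of 18 and 1 of 21. The isotypes with a lower share on X were Arg, with 2 of 27 on X and 3 of 17 on autosomes, Ile, with 1 of 13 and 2 of 16, Met, with 0 of 8 and 1 of 12, and Pro, with 2 of 20 and 3 of 22. The highest called gene of the isotypes not yet named was F38G1.t2 for Asp, at 105 in an intron of *egl-17*, the gene of a fibroblast growth factor. It was C06G1.t1 for His at 96.1, R04D3.t2 for Val at 111, C53C7.t1 for Ser at 112 and ZK507.t1 for Asn at 76.1. C53C7.t1 shares its peak with C53C7.t2, another Ser gene 130 bp away.

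Clustered and lone tRNA genes did not differ in a steady direction, and the interval of the difference included 0 in each of the 3 lists. Of 236 genes with another tRNA gene within 1000 bp, 10.2% were called in the series list, and of 376 lone genes 13.6%. The difference was -3.39 points (-8.41 to 2.08), with 3.06 points in replicate 1 (-0.475 to 7.28) and -1.71 in replicate 2 (-4.60 to 1.60). Both genes of a pair at 1 peak count as called and clustered. With each peak credited to its nearest tRNA gene alone, a setting chosen once the data had been seen, the series difference was -6.36 points (-11.02 to -1.28). Every call that this setting removes is at a clustered gene, so it can only lower the clustered share. On X 16 of 135 clustered genes (11.9%) and 35 of 141 lone genes (24.8%) were called, and on autosomes 8 of 101 (7.92%) and 16 of 235 (6.81%). In comparisons added after the data were seen, the series difference was -13.0 points (-21.9 to -3.83) on X. On autosomes it was 1.11 points (-4.42 to 8.51), an interval that includes 0, so an opposite direction there is not resolved. On X, 13 clustered and 13 lone genes were called in replicate 1 (9.63% and 9.22%), and 6 and 13 in replicate 2 (4.44% and 9.22%). Clustered genes formed 100 clusters of 2 to 6 genes. A called gene was found in 17 clusters, and in 11 of these another gene of the same cluster was not called.

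A smaller share of genes inside introns than of genes between protein-coding genes was called in the series list. There 24 of 283 intronic tRNA genes (8.48%) and 48 of 319 intergenic ones (15.0%) were called, a difference of -6.57 points (-11.7 to -1.38). In the replicates the difference was -2.42 points (-5.96 to 1.12) and -1.92 points (-5.03 to 1.18), intervals that include 0. X has more intergenic tRNA genes and more calls, so the shares were also taken within each. On X 14 of 95 intronic genes (14.7%) and 36 of 180 intergenic genes (20%) were called, and on autosomes 10 of 188 (5.32%) and 12 of 139 (8.63%). The differences were -5.26 points (-13.9 to 4.69) on X and -3.31 points (-9.64 to 2.23) on autosomes. Both intervals include 0, so the difference is not resolved within either. Of intronic genes on the strand of their host 9 of 160 (5.63%, 2.60 to 10.4) were called in the series list, and on the opposite strand 15 of 122 (12.3%, 7.05 to 19.5). These intervals overlap, and the counts were 5 and 5 in replicate 1 and 3 and 4 in replicate 2. The called intronic genes had 23 different hosts. Of the 10 tRNA genes that touch an exon 3 were called. Promoters of protein-coding genes made little difference, with 18 of 149 tRNA genes within a promoter window (1000 bp upstream to 200 bp downstream of a transcript start) called (12.1%) and 57 of 463 outside (12.3%).

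Most thresholded peaks had their summit inside a tRNA gene, among peaks that the rule limits to 150 bp from such a gene. Each peak is close to a fixed width around its summit, 276 bp for 95.6% of the thresholded peaks, so the summit is the position it gives. Of the 68 thresholded peaks, 43 (63.2%) had their summit inside the nearest tRNA gene, 16 upstream and 9 downstream. The median summit was 26.5 bp after the first base of the gene, with quartiles at 5 and 59.5 bp, and 62 summits (91.2%) lay within 50 bp of the gene. Of all 456 ranked peaks in reach, 204 (44.7%) were inside and 356 (78.1%) within 50 bp, with a median of 29 bp. The window of 150 bp decided few calls. The called genes farthest from their summit were F47G6.t1 and R04A9.t1 at 99 bp and C16B8.t3 (Pro) at 147 bp. The nearest genes beyond the window were W09D6.t1 (Pro) at 171 bp and *rte-5* (Glu) at 175 bp, and neither had a peak in reach in the series ranked list.

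**Figure D5:**
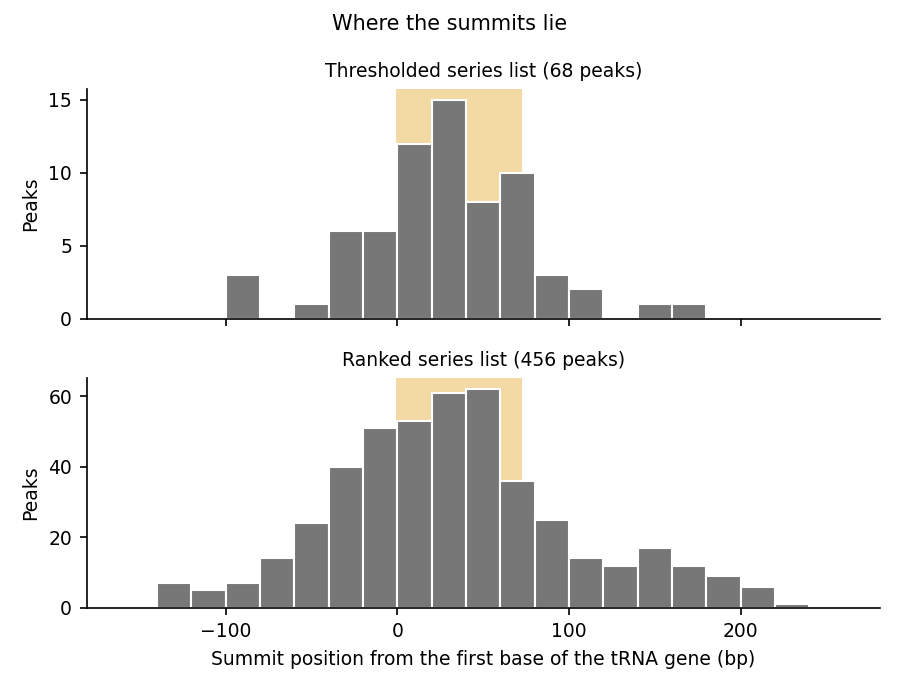
Position of peak summits relative to the first base of the nearest tRNA gene (x axis, bp in the direction of transcription), as numbers of peaks per 20 bp (y axis). The upper panel has the 68 thresholded peaks and the lower the 456 ranked peaks of the series lists, and the shaded band spans 72 bp, the median gene length. The medians are 26.5 and 29 bp, inside the band.

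The B box core and a run of T after the gene were at nearly all tRNA genes, called or not. The narrow A box had a higher share and GATA sites a lower share at the called genes, with overlapping intervals. The B box core GTTCNANNC, searched on the strand of the gene, was in 96.0% of the called and 95.9% of the other genes, against 1.23% of genome windows of 72 bp. TTTT within 40 bp after the gene was found at 100% of the called and 98.7% of the others, against 44.4% of genome windows of 40 bp. The narrow A box TGGCNNAGT, on the strand of the gene, was in 17.3% of the called genes (9.57 to 27.8) and 8.94% of the others (6.66 to 11.7), against 0.323% of genome windows of 72 bp. These intervals overlap. Most of the A boxes printed above read tagctcagt and are not covered by that motif. GATA sites (TGATAN or AGATAN with A or G as the last base, on either strand) within the gene and 150 bp on each side were at 45.3% of the called genes (33.8 to 57.3) and 57.7% of the others (53.4 to 61.9), against 55.2% of genome windows of 372 bp. The median GC content of gene and flanks was 42.1% for the called and 40.1% for the other genes, and 38.7% on X against 42.5% on autosomes. Its part in the calls was not tested.

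The machinery of RNA polymerase III and its other templates were looked at beside the tRNA genes. Promoters of 13 genes for polymerase subunits (such as *rpc-1*), TFIIIB (*brf-1*, *tbp-1*), TFIIIC (*tftc-3*) and regulators (*mafr-1*) had 0 calls in the series list, against 1.87% of all protein-coding promoters. They also had 0 calls in replicate 1, against 0.546%, and in replicate 2, against 0.751%. With 13 genes this background would give less than 1 call. In the ranked series list 10 of the 13 had a peak, with a median height of 27.6, highest at the subunit gene *rpac-19* (46.6 in the series list, 17.0 in replicate 1, 29.9 in replicate 2). U6 snRNA genes were not analysed here. Among other transcripts of the polymerase, *rpr-1*, the RNA of ribonuclease P, was called in all 3 lists, with heights of 153, 55.7 and 92.9. The 16 annotated 5S rRNA genes had 0 calls in any list. The background over all genes was 1.45% in the series list, 0.439% in replicate 1 and 0.456% in replicate 2, too low to expect a call among 16 genes. Short RNA genes had higher series shares, at 12.3% for tRNA, 13.2% for snRNA and 10.4% for snoRNA genes. What to expect among 16 genes thus depends on the background taken. Of the 16, 5 had a peak in the ranked series list. Among them *rrn-4.6* had ranked heights of 197, 113 and 85.0, above those of every tRNA gene. The lowest score in the series thresholded list is 830, and 101 ranked peaks that reach it are absent from that list. None of these 101 lay within 150 bp of a tRNA gene.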

How the data were processed

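The authors deposited 8 peak lists on ce11, 4 for the series and 2 for each replicate, and per the labels the 2 samples are biological replicates of 1 group. The score column (column 5) deposited by the authors reaches 1000, and every peak of the series thresholded list has 830 or more. The signal column (column 7), deposited by the authors, is called height here. Summits were taken from the deposited offset in column 10. The sources used here do not give the aligner, the peak caller, their versions or the treatment of reads with several matches. No read counts were used, so the depth is unknown, and no test was run.

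tRNA genes and other genes came from Ensembl release 115 (WBcel235) and isotypes from RefSeq. Anticodons were placed by a script from the cloverleaf (a loop of 7 bases on a stem of 5 pairs, at least 4 of them paired) where they decode the annotated isotype. A gene took the highest peak with a summit within 150 bp. Intervals are Clopper-Pearson 95% intervals for shares and Newcombe intervals for differences. Genes named are the 10 highest called, the 5 highest called in each replicate, the highest called of each isotype, the 5 highest not called, and called genes of the isotypes with the lowest shares. Genes and sets named otherwise, such as the highest on autosomes, were chosen after their values were seen. Members and lists were chosen with earlier results of these data known. The steps were tested on simulated peaks and sequences. Scripts ran in Python 3.11.15 with scipy 1.17.1, pandas 2.3.3, matplotlib 3.10.9 and numpy 2.4.6.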

Additional observations from a re-analysis of the deposited data

How the results depend on the processing

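Of 58 alternative values, 44 kept the reported direction and lay within the 95% interval of the reported value (for the number of isotypes, within 1.5 times of it), 11 moved further and 3 reversed. The share of called tRNA genes (12.3%) was 7.84% with scores of 1000 only. It was 4.90% with replicate 2 left out and 3.59% with replicate 1 left out. Each is the share in the other replicate's own thresholded list. Those lists hold 199 and 232 peaks against 699 in the series list. Their backgrounds over all genes were 0.439% and 0.456%, against 1.45%. Of the 200 distinct sequences 22.5% had a called copy, which is not a share of genes. Among single-copy genes 9 of 143 were called (6.29%, 2.92 to 11.6). Among genes with identical copies 66 of 469 were (14.1%, 11.1 to 17.6). The difference between X and autosomes (11.3 points) was 4.12 for single-copy genes and from 5.99 to 8.23 with either replicate left out. The difference between clustered and lone genes (-3.39 points) turned to 0.98 for single-copy genes and, in an alternative added after seeing the data, to 1.11 on autosomes alone, while it was -13.0 on X alone. With either replicate left out it ranged from -1.71 to 3.06. With each peak credited to its nearest gene it was -6.36, with summits within 50 bp -5.03 (-9.59 to -0.046) and with scores of 1000 only -1.04. The interval of this difference included 0 in 10 of 13 alternatives, among them all those that reversed. It lay below 0 in 3 and above 0 in 0. Among the 3 is the crediting of peaks to the nearest gene, which can only lower the clustered share. The number of isotypes called (18) was 11 without replicate 1 and 15 without replicate 2. The median height (43.5) was 24.7 and 27.4 in the same order, where the scale of the list changes too. Over all alternatives the number of isotypes ran from 11 to 18 and the median height from 24.7 to 44.95. The correlation between replicates was 0.28 over called genes. The difference between intronic and intergenic genes was negative in all 11 alternatives, from -6.53 to -1.92 points against -6.57, but its interval included 0 in 8 of them. Causes of these changes were not tested. No paired analysis was possible because there was 1 group. With 2 replicates and unknown depth, a gene without a call is not shown to lack binding.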
